A study of Homo sapiens with 14 samples.

Results

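Antisense transcripts expressed while human embryonic stem cells were differentiated toward the pancreas are described here, together with the genes they are named after. An antisense transcript was taken as a gene symbol ending in -AS and a number, EPB41L4A-AS1 left out, with a mean of at least 2 CPM (counts scaled to the column total) in the RNA libraries of at least 1 stage. Members were thus selected on RNA level. Of 59050 gene symbols in the deposited table, 1246 had such a name, and 435 of them met the level. The antisense RNA levels therefore chose the members, and they are described below without a test. Just inside the threshold, MORF4L2-AS1 reached 2.03 CPM, CRTC3-AS1 2.01 and CD27-AS1 2.01, and just outside it RHPN1-AS1 reached 1.996, KRTAP5-AS1 1.99 and DDX11-AS1 1.98.

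RNA sequencing of ribosomal-RNA-depleted total RNA (RNA) and ribosome profiling (Ribo), which counts the RNA fragments that ribosomes protect, were carried out on HUES8 cells, an established human embryonic stem cell line. All libraries came from wild-type cells of this 1 line in culture. Cells were taken as definitive endoderm (DE), as pancreatic progenitors of an early stage (PP1) and as those of a late stage (PP2), with 2, 2 and 3 libraries in each assay, and undifferentiated cells were not analysed here. The sources used here do not say whether replicates were separate differentiations, so p-values refer to the spread among these libraries, and that spread may be technical. In bulk RNA, fewer cells of a type and less RNA per cell cannot be told apart.

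Antisense transcripts are RNAs read from the strand opposite to another gene. Many start near that gene's own start and run away from it, others overlap its body or its end, and most are classed as long noncoding RNAs (lncRNAs). Some are known to affect the transcription or stability of their partner, some act elsewhere in the cell, and for many no function is established. Footprints on a lncRNA do not by themselves show a protein product.

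A sense gene was found for 430 of the 435 members, 2 of them under an older symbol, which gave 408 different sense genes. The 5 without one were RPARP-AS1, HOXA-AS2, HOXB-AS1, HOXD-AS2 and TRG-AS1, and 19 sense genes had 2 or more antisense members. RefSeq (GRCh38.p14) held an annotation for 428 members, 32 of them under an older symbol, and classed 421 as lncRNA. Of 423 pairs with coordinates for both genes, 350 overlapped and 73 lay apart. Strand was known for both genes in 282 pairs. Among these 86 overlapped at their starts, 80 had the antisense gene inside the sense gene, 52 ran away from each other without overlap, 52 overlapped at their ends, 8 had the antisense gene spanning the sense gene, and 4 ran toward each other without overlap. The strand setting of the counting is not given in the sources used here, so where 2 genes overlap their reads cannot be told apart.

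Of the divergent pairs, 3 with bodies apart are shown by sequence, because their annotated genes do not overlap. GATA6-AS1 starts 621 bases from GATA6, SOX21-AS1 171 bases from SOX21, and ID2-AS1 193 bases from ID2. Each window runs 5′ to 3′ on the strand of the named gene from 250 bases before its start to 50 bases after it, as given by RefSeq on GRCh38.p14. The windows are chr18:22168919-22169218 on the minus strand for GATA6-AS1, chr18:22169339-22169638 on the plus strand for GATA6, chr13:94712466-94712765 on the plus strand for SOX21-AS1 and chr2:8681814-8682113 on the minus strand for ID2-AS1. Capitals mark 3 motifs, searched on both strands and nowhere overlapping in these windows. One is the CCAAT box, which is spelled as its name. Another is the TATA box, for which the letters searched were TATAAA. The last is the GC box, a run of 3 G, a C and a pair of G.
GATA6-AS1: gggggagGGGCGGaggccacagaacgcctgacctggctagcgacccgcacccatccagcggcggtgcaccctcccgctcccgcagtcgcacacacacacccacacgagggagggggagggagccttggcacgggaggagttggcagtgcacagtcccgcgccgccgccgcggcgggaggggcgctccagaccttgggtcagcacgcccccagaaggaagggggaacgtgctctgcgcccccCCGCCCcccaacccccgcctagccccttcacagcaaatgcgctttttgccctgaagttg
GATA6: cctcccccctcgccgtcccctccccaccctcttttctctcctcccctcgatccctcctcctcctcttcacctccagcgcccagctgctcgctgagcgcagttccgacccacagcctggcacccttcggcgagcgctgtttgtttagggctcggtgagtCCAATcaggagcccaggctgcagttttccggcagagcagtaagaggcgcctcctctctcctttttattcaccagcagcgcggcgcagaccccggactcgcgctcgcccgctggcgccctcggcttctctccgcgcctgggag
SOX21-AS1: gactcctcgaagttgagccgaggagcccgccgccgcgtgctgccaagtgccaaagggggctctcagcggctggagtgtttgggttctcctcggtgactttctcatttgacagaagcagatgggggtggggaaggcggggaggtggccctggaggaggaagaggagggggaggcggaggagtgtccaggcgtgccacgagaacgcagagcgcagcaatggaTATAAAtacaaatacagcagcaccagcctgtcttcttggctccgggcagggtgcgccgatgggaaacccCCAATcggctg
ID2-AS1: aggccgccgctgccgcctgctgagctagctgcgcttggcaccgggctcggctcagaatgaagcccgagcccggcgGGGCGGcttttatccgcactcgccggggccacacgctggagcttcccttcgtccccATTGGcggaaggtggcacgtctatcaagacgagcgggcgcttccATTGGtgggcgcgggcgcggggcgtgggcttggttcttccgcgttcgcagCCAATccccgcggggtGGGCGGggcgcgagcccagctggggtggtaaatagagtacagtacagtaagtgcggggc
The SOX21-AS1 window shares 270 of its 300 bases with the SOX21 window on the other strand, and the ID2-AS1 window shares 292 with that of ID2. The SOX21-AS1 window holds 1 TATA box and 1 CCAAT box, the ID2-AS1 window 3 CCAAT boxes and 2 GC boxes, the GATA6-AS1 window 2 GC boxes, and the GATA6 window 1 CCAAT box.

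Promoter windows were matched for 322 antisense members and 335 sense genes. A GC box stood in 47.5% of the antisense windows, against 64.2% of the sense windows, 44.6% of all 27305 windows and 24.7% of those of other lncRNAs. The median GC content was 60.7% in antisense windows, 66% in sense windows, 58.3% in all windows and 49.7% in other lncRNA windows. CpG dinucleotides, observed over expected, had a median of 0.70 in antisense windows, 0.83 in sense windows, 0.58 in all windows and 0.28 in other lncRNA windows. A TATA box was found in 10.9% of antisense windows, 7.76% of sense windows and 11.95% of all windows, and a CCAAT box in 33.2%, 34.9% and 35.7% of them. The antisense windows lay between those of their sense genes and those of other lncRNAs in median GC content, CpG ratio and share with a GC box. The members were chosen by RNA level and the other lncRNAs were not, so class and expression are mixed in this comparison. The 52 divergent members with bodies apart stood above the sense genes, at a median GC content of 67.8%, a CpG ratio of 0.90 and 67.3% with a GC box. The starts of 82 pairs lie within 500 bases of each other, and in the SOX21 and ID2 pairs the windows are largely the same DNA. A match is a string of letters in the window, not a site shown to be used.

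The stage labels were checked against marker genes. Summed definitive endoderm markers averaged 6389 CPM in DE, 345 in PP1 and 204 in PP2, and late progenitor markers 1.43, 142 and 511 CPM. The early progenitor markers PDX1 and ONECUT1 did not mark PP1 apart from PP2, since PDX1 had no count in DE, 64.0 and 58.2 CPM in PP1, then 212, 198 and 42.1 in PP2, and ONECUT1 had 11.9 and 11.7 CPM in DE, 12.4 and 13.9 in PP1, then 20.5, 20.1 and 6.31 in PP2. Mesenchymal markers averaged 59.5, 338 and 212 CPM, and neural markers 102, 0.0685 and 0.261 CPM, nearly all of it PAX6. Hepatic markers (AFP, ALB, TTR and APOB) averaged 3.12 CPM in DE, 12232 in PP1 and 2979 in PP2, and the part of these other cell types in the results was not tested. The marker lists hold some of the genes described below, GATA6 among those of DE, HNF4A among those of PP1 and SOX9 among those of PP2. RNA libraries held 15107847 to 21009065 counts and Ribo libraries 4710335 to 24186949. Libraries of both assays stood apart. Libraries are named by stage and replicate, so that DE-1 is replicate 1 of DE. RNA PP2-3 had summed late progenitor markers at 188 CPM, against 676 and 668 in replicates 1 and 2, and hepatic markers at 4870 CPM, against 1887 and 2180. Of the late markers, SOX9 (100 CPM against 511 and 521) and NKX6-1 (71.4 against 150 and 134) were lower in PP2-3. PTF1A was not, at 15.8 CPM against 14.8 and 12.8. MT-RNR2, a ribosomal RNA of mitochondria, made up 1.65% of the counts in Ribo PP2-1 and 11.004% in PP2-3, against 44.6% to 60.8% in the other 5 Ribo libraries.

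Most antisense members were of low abundance. The highest stage mean was under 10 CPM in all but 110 members, reached 50 CPM in 14 and 100 CPM in 4, and its median was 4.99 CPM. At 2 CPM, 326 members were present in DE, 309 in PP1 and 347 in PP2. All 3 stages were shared by 225 members, and 51 reached the level only in DE, 23 only in PP1 and 39 only in PP2. By normalised level (CPM over library sizes scaled by trimmed mean of M-values, used from here on), 146 members were highest in DE, 97 in PP1 and 192 in PP2. OIP5-AS1, a conserved lncRNA also called cyrano, was the most abundant, with 341 and 285 CPM in DE, 177 and 162 in PP1, then 154, 150 and 233 in PP2. Both DE libraries were above all PP1 and PP2 libraries.

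Per kilobase, most antisense transcripts were below their sense gene. The median ratio of the antisense to the sense RNA level per kilobase was 0.173 in DE, 0.162 in PP1 and 0.194 in PP2, over 427, 427 and 428 pairs. Of 425 pairs with a ratio at every stage, 354 had the antisense transcript below the sense gene at all 3 stages and 30 had it above at all 3. FGF14-AS2 stood at 54.7, 62.5 and 50.6 times the level of FGF14 per kilobase in DE, PP1 and PP2, but FGF14, a fibroblast growth factor homologous factor that binds sodium channels, stayed at or under 1.02 CPM. The ratio of OIP5-AS1 to OIP5, a centromere protein gene, was 10.9, 4.92 and 4.23, and that of FGD5-AS1 to FGD5, which encodes a guanine exchange factor of endothelial cells, was 7.68, 13.05 and 79.8.

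The first question was how far antisense RNA and sense RNA moved together from stage to stage. In the comparison of PP1 with DE, 87 of the 435 antisense members were at least 2-fold higher in PP1 with no overlap between the libraries, and 74 were lower. Over all 24603 genes tested these shares are 16.5% higher and 16% lower. PP2 was higher than PP1 in 57 members and lower in 44, against backgrounds of 10.9% and 12.4%. PP2 was higher than DE in 88 and lower in 66, against 17% and 16.9%.

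Among the sense genes, 400 of 408 were tested with edgeR. How many of these passed the low-count filter through a single stage was not counted. The shares of all genes, here and below, are not matched for RNA level. Leaving out a DE or PP1 library leaves 1 library in that stage, with no spread of its own. In PP1 relative to DE, 78 rose and 62 fell, 35% of those tested, against 24.3% of all genes (percent called at an adjusted p under 0.05), of which 12.3% rose and 12% fell. The count of 140 became 86 without RNA DE-1, 86 without DE-2, 90 without PP1-2 and 273 without PP2-3. In PP2 relative to PP1, 35 rose and 58 fell, 23.2% against 18.4% of all genes, and with scaling over protein-coding and antisense genes alone 49 rose and 51 fell. That count of 93 became 60 without DE-1, 60 without DE-2, 31 without PP1-1, 34 without PP1-2 and 242 without PP2-3. In PP2 relative to DE, 86 rose and 86 fell, 43% against 33.5% of all genes. Here the count of 172 became 93 without DE-1, 91 without DE-2 and 259 without PP2-3.

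The antisense and the sense RNA log2 fold changes had the same sign in most pairs. For PP1 over DE this held in 321 of 422 pairs (76.1%), with a Spearman rho of 0.70 and a Pearson r of 0.81 across pairs. For PP2 over PP1 it held in 295 pairs (69.9%, rho 0.61), and for PP2 over DE in 315 (74.6%, rho 0.68). Genes next to each other in the whole table, members left out, had the same sign in 57.8%, 58.3% and 61.5% of 17307 neighbouring pairs, with rho of 0.24, 0.24 and 0.31. These are descriptions across pairs that share libraries, and the 3 comparisons share samples. In the 73 pairs with bodies apart the sign was shared in 80.8%, 65.8% and 76.7%. Where the antisense gene lay inside the sense gene (80 pairs) it was shared in 83.8%, 77.5% and 82.5%, and where the genes overlapped at their ends (51 pairs) in 56.9%, 70.6% and 72.5%. Where the sense gene passed the test, the sign was shared in 140 of 154 pairs for PP1 over DE, 84 of 99 for PP2 over PP1 and 159 of 184 for PP2 over DE.

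**Figure D1:**
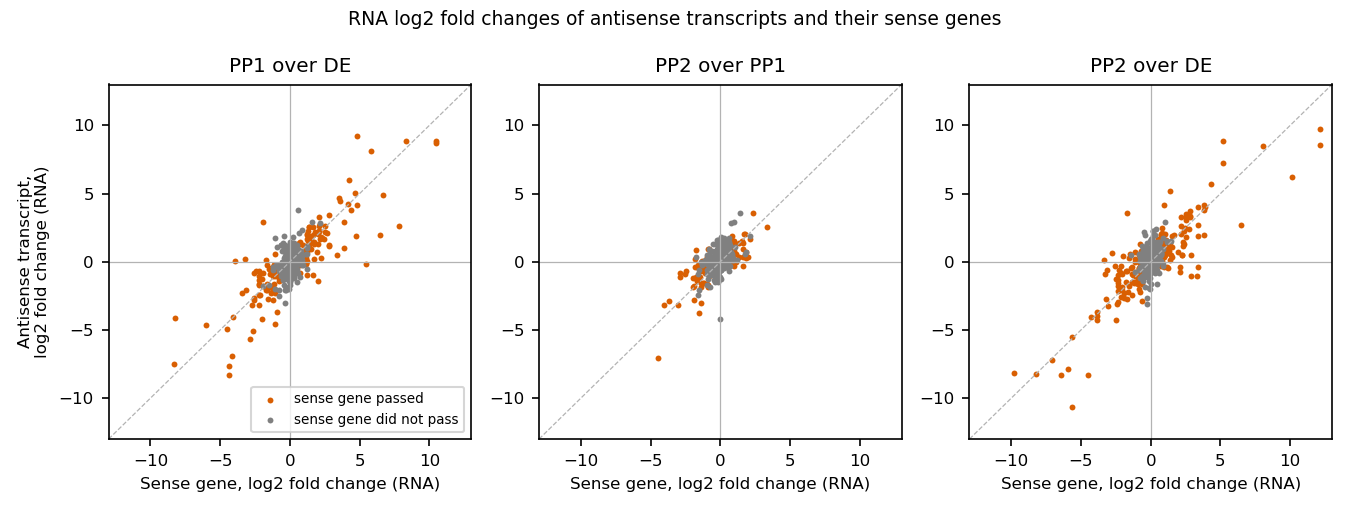
RNA log2 fold changes of antisense transcripts (vertical axis) against their sense genes (horizontal axis) for PP1 over DE, PP2 over PP1 and PP2 over DE, 1 point per pair. Orange points are pairs whose sense gene passed the test, the dashed line marks equal changes, and fitted values of genes with no count in a stage depend on the prior count. In the first panel 321 of 422 pairs lie in the quadrants of equal sign.

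Developmental regulators, mostly transcription factors, made up 20 of the sense genes. In PP1 relative to DE, 10 of the 20 rose and 4 fell, 70% against 24.3% of all genes. In PP2 relative to PP1, 5 rose and 1 fell (30% against 18.4%), and in PP2 relative to DE 11 rose and 4 fell (75% against 33.5%). The list median of the log2 fold change was 0.58, -0.01 and 1.31 in these comparisons, beside 0.01, 0.01 and 0.05 over all genes tested.

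SOX9-AS1, NR2F1-AS1 and NR2F1 were highest in PP2, above PP1 in every library. SOX9-AS1 had 0.119 and 0 CPM in DE, 2.40 and 1.77 in PP1, then 22.2, 24.4 and 27.7 in PP2, on 2 counts in DE. SOX9, a regulator of pancreatic progenitors, had 1.07 and 1.73 CPM in DE, 129 and 154 in PP1, then 511, 521 and 100 in PP2, and rose in PP2 relative to DE by a log2 fold change of 8.08 ± 0.89 (SE; edgeR adjusted p = 0.00028). For SOX9 2 PP2 libraries were above PP1 and replicate 3 was below, whereas for SOX9-AS1 every PP2 library was above both PP1 libraries. NR2F1-AS1 had 0.0593 and 0.731 CPM in DE, 2.95 and 1.87 in PP1, then 29.0, 23.3 and 32.9 in PP2. NR2F1, an orphan nuclear receptor gene, had 0.0593 and 0 CPM in DE, 6.51 and 10.6 in PP1, then 42.3, 44.4 and 44.4 in PP2. It rose in PP2 relative to PP1 by 2.35 ± 0.27 (edgeR adjusted p = 0.0012), beside 3.57 ± 0.49 for NR2F1-AS1, and the 2 genes overlap at their starts by 2368 bases.

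MEIS1 and its antisense transcript MEIS1-AS2 had the same order of stages, while NR2F2 and NR2F2-AS1 were both low in DE. MEIS1-AS2 had 0.415 and 0.665 CPM in DE, 3.84 and 3.59 in PP1, then 9.76, 9.59 and 9.40 in PP2. MEIS1, a homeobox cofactor of HOX proteins, had 20.9 and 21.3 CPM in DE, 98.6 and 92.7 in PP1, then 278, 260 and 371 in PP2, and rose at both steps, by 2.18 ± 0.23 and 1.66 ± 0.21 (edgeR adjusted p = 0.00034 and 0.0019). No libraries of different stages overlapped for either gene. NR2F2-AS1 had 0.178 and 0.199 CPM in DE, 2.54 and 2.86 in PP1, then 2.66, 2.91 and 2.72 in PP2. NR2F2, another orphan nuclear receptor gene, had 3.98 and 2.66 CPM in DE, 81.4 and 60.2 in PP1, then 58.4, 61.0 and 24.5 in PP2, and rose in PP1 relative to DE by 4.41 ± 0.49 (edgeR adjusted p = 0.00042). For both genes the PP1 and PP2 libraries overlapped, and all were above DE.

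GATA6, GATA3 and FOXD3 were highest in DE. GATA6-AS1 had 44.3 and 51.8 CPM in DE, 7.40 and 7.43 in PP1, then 6.42, 5.10 and 5.30 in PP2. GATA6, a zinc-finger factor of endoderm, had 533 and 571 CPM in DE, 159 and 207 in PP1, then 130, 137 and 43.7 in PP2, and fell in PP2 relative to DE by 2.41 on the log2 scale (SE 0.43, edgeR adjusted p = 0.0033). Its fall in PP1 relative to DE, of 1.59 (SE 0.48, edgeR adjusted p = 0.044), was lost without DE-1 (adjusted p = 0.14), DE-2 (0.16), PP1-1 (0.23), PP1-2 (0.14) or PP2-1 (0.051). GATA3-AS1 had 2.67 and 1.73 CPM in DE, 1.10 and 0.728 in PP1, and no count in PP2, at least 44.9-fold lower in PP2 than in DE (against 3 counts over the group). GATA3, another zinc-finger factor of this family, had 82.8 and 85.8 CPM in DE, 25.4 and 17.7 in PP1, then 1.2002, 1.12 and 0.599 in PP2, and fell at each step (edgeR adjusted p = 0.0017 and 0.00017). FOXD3-AS1 had 1.602 and 2.66 CPM in DE, 0.0685 and 0.156 in PP1 and none in PP2. FOXD3, a forkhead factor of pluripotent and neural crest cells, had 2.02 and 2.13 CPM in DE and no count in PP1 or PP2, at least 23.3-fold and 41.7-fold lower. With no count in either later stage, FOXD3 could pass the low-count filter only through DE, so no test is given for it.

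SOX21 and ID2 form divergent pairs whose promoter windows nearly coincide with those of their antisense transcripts. SOX21-AS1 had 16.2 and 13.6 CPM in DE, 3.08 and 2.34 in PP1, then 13.99, 11.5 and 8.30 in PP2. SOX21, a transcription factor gene of the SOX family, had 21.6 and 23.9 CPM in DE, 7.20 and 3.27 in PP1, then 17.8, 18.6 and 18.02 in PP2. It fell in PP1 relative to DE by 2.13 (SE 0.34) and rose in PP2 relative to PP1 by 1.80 ± 0.32 (edgeR adjusted p = 0.0025 and 0.0068), beside -2.46 ± 0.32 and 2.06 ± 0.30 for SOX21-AS1. ID2-AS1 had 5.70 and 4.19 CPM in DE, 10.2 and 9.30 in PP1, then 3.86, 3.27 and 4.47 in PP2, so that its PP2 and DE libraries overlapped. ID2, a helix-loop-helix inhibitor of other factors, had 12.1 and 12.96 CPM in DE, 171 and 203 in PP1, then 99.2, 106 and 198 in PP2, all PP2 libraries above DE. ID2 rose in PP2 relative to DE by 3.42 ± 0.36 (edgeR adjusted p = 0.00021), beside -0.35 ± 0.25 for ID2-AS1.

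**Figure D2:**
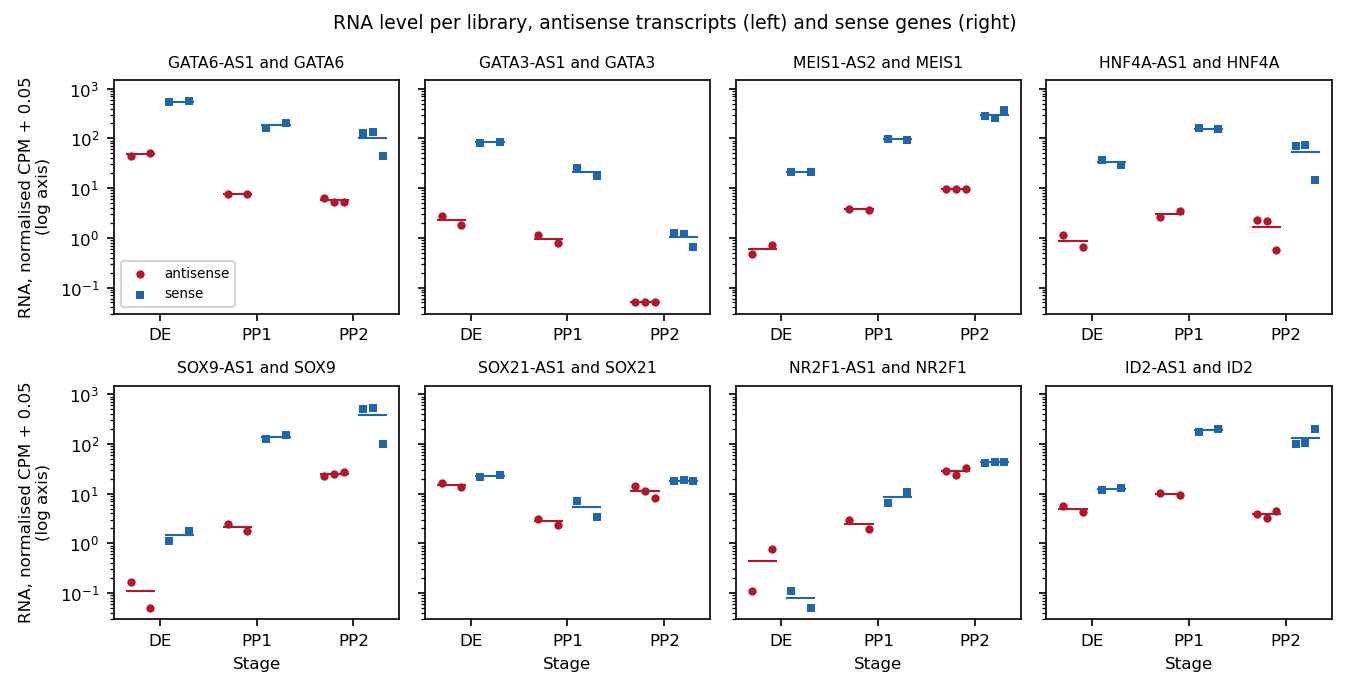
RNA level per library, as normalised CPM plus 0.05 on a log axis, for 8 antisense transcripts (red circles, left) and their sense genes (blue squares, right) by stage, with horizontal bars at group means. Within each gene the stages can be compared, and a library with no count sits at the bottom; SOX21-AS1 and SOX21 are both lowest in PP1, while the PP2 and DE libraries overlap for ID2-AS1 and do not for ID2.

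The calls of HNF4A and PROX1 were each lost when 1 of several libraries was left out. HNF4A-AS1 had 1.07 and 0.598 CPM in DE, 2.54 and 3.38 in PP1, then 2.24, 2.14 and 0.507 in PP2. HNF4A, a nuclear receptor gene of liver and gut endoderm, had 37.2 and 28.9 CPM in DE, 163 and 153 in PP1, then 68.9, 74.6 and 14.5 in PP2. Its rise in PP1 relative to DE (log2 2.25 ± 0.64, edgeR adjusted p = 0.035) was lost without DE-1 (adjusted p = 0.15), DE-2 (0.2), PP1-1 (0.12) or PP1-2 (0.11). PROX1-AS1 was lower in PP1 than in DE, with 1.30 and 1.35 CPM in PP1 and 2.26 and 2.99 in DE. PROX1, a homeobox factor of liver and pancreas, had 53.0 and 73.9 CPM in PP1 and 28.01 and 26.2 in DE, and its rise of 1.23 ± 0.28 (edgeR adjusted p = 0.014) was lost without DE-1 (adjusted p = 0.093), DE-2 (0.12) or PP1-2 (0.12). HOXA-AS2, which has no single sense gene by its name, had no count in DE, 6.31 and 6.91 CPM in PP1 and 13.8, 11.2 and 7.51 in PP2, at least 113.8-fold higher in PP2 than in DE.

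Pairs outside the regulator list included some that were absent or low in DE. LHFPL3, which encodes a tetraspan membrane protein, had no RNA count in DE, 8.22 and 11.1 CPM in PP1, then 33.3, 31.6 and 26.8 in PP2. LHFPL3-AS2 had 0.297 and 0 CPM in DE, 67.8 and 70.9 in PP1, then 145, 143 and 118 in PP2, and LHFPL3-AS1 had none in DE, 2.47 and 3.85 in PP1, then 2.77, 2.40 and 2.63 in PP2. LHFPL3 was at least 105.0-fold higher in PP1 and 323-fold higher in PP2 than in DE, with edgeR adjusted p of 4.6e-05 and 1e-05. LHFPL3-AS2 exceeded LHFPL3 per kilobase by 5.60 times in PP1 and 3.46 times in PP2. LIPC, the hepatic lipase gene, peaked in PP1, with 0.297 and 0.133 CPM in DE, 66.8 and 81.7 in PP1, then 3.81, 2.86 and 6.82 in PP2. LIPC-AS1, inside it, had none in DE, 2.74 and 3.59 CPM in PP1, then 0.365, 0.663 and 0.0461 in PP2. LIPC rose by 8.36 ± 0.58 in PP1 relative to DE and fell by 4.04 (SE 0.35) in PP2 relative to PP1 (edgeR adjusted p = 4.5e-05 and 0.0004). GPC3, a glypican gene of embryonic liver, had 19.5 and 19.3 CPM in DE, 476 and 613 in PP1, then 666, 773 and 721 in PP2. GPC3-AS1 had no count in DE, 4.18 and 4.16 CPM in PP1, then 4.17, 2.14 and 3.46 in PP2.

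TRDN, HAS2, SEMA5A, P3H2 and GDNF, taken from the sense genes with large changes, were lower after DE, and so were their antisense transcripts. TRDN, which encodes triadin of the muscle calcium-release complex, had 97.3 and 92.8 CPM in DE, 0.206 and 0.364 in PP1, then 0.104, 0.102 and 0.0922 in PP2. TRDN-AS1, inside TRDN, had a single count in each later stage, against 7.18 and 6.11 CPM in DE. HAS2, a hyaluronan synthase gene, had 249 and 265 CPM in DE, 14.7 and 16.5 in PP1, then 1.10, 1.79 and 2.77 in PP2, and HAS2-AS1 had 8.37 and 13.4 CPM in DE, 0.617 and 0.676 in PP1, then 0.157, 0.051 and 0 in PP2. The log2 fold change in PP2 relative to DE was -7.21 ± 0.58 for HAS2-AS1 and -7.08 ± 0.35 for HAS2 (edgeR adjusted p = 6.2e-06 for HAS2). SEMA5A, a semaphorin gene, fell by 5.61 (SE 0.23) in PP2 relative to DE, beside -5.51 ± 0.42 for SEMA5A-AS1. P3H2, a collagen prolyl hydroxylase gene, fell by 5.65 (SE 0.27), and P3H2-AS1 had no count in PP2 and 9.67 and 12.8 CPM in DE, at least 225-fold lower in PP2. GDNF, the glial neurotrophic factor gene, fell by 4.27 (SE 0.58), beside -4.07 ± 0.49 for GDNF-AS1. In each of these 4 comparisons of PP2 with DE the libraries of the stages did not overlap. For HAS2, SEMA5A and P3H2 the edgeR adjusted p was at most 0.00082. GDNF had 201 counts in DE, 3 in PP1 and 19 in PP2. It passed the low-count filter through DE alone, so no test is given for it.

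Signalling genes made up 16 of the sense genes. In PP1 relative to DE 3 rose and 6 fell (56.2%, against 24.3% of all genes), in PP2 relative to PP1 1 rose and 1 fell (12.5% against 18.4%), and in PP2 relative to DE 2 rose and 7 fell (56.2% against 33.5%). The genes that rose in PP1 were UNC5B, a netrin receptor, EGFR, the epidermal growth factor receptor, and DOCK4, a guanine exchange factor. UNC5B had 142 and 131 CPM in PP1 against 8.25 and 9.83 in DE, and UNC5B-AS1 had 4.39 and 3.33 CPM in PP1 against 0.297 and 0.731 in DE. Those that fell were ACVR2B, BMP7, FGF12, FGF13, FZD10 and SEMA3F, which include an activin receptor, a bone morphogenetic protein and a Wnt receptor.

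Examples of pairs whose antisense and sense values differed in direction or size were those of FGF12, SEMA3F, TMC3, MACC1 and FGD5. FGF12-AS2, inside FGF12, had 0.754 and 2.03 CPM in PP1 and 0.356 and 0 in DE, while FGF12, a fibroblast growth factor homologous factor, had 8.36 and 8.47 CPM in PP1 and 33.1 and 29.8 in DE, and fell by 1.90 (SE 0.20, edgeR adjusted p = 0.00031). SEMA3F-AS1 had 4.66 and 5.41 CPM in PP1 and 4.87 and 4.98 in DE, which overlapped, while SEMA3F, a secreted semaphorin gene, fell by 3.96 (SE 0.38, edgeR adjusted p = 0.00021). TMC3-AS1 had 4.52 and 3.95 CPM in PP1 and 4.75 and 4.52 in DE, while TMC3, a transmembrane channel-like gene that TMC3-AS1 spans, rose by 5.44 ± 0.39 (edgeR adjusted p = 5.3e-05). MACC1, a regulator of the hepatocyte growth factor receptor gene, rose by 3.32 ± 0.26 in PP2 relative to DE (edgeR adjusted p = 4.8e-05), with MACC1-AS1 at 1.41, 1.94 and 1.34 CPM in PP2 and 2.67 and 3.79 in DE. FGD5-AS1 had 97.9, 101 and 178 CPM in PP2 and 86.9 and 77.2 in DE, while FGD5 had 4.02, 2.19 and 1.198 CPM in PP2 and 14.8 and 18.7 in DE, a fall of 2.77 (SE 0.43, edgeR adjusted p = 0.0016). Of these, FGD5-AS1 and FGD5 have bodies apart, by 8207 bases, and the other 4 pairs overlap.

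The second question was whether antisense transcripts carried ribosome footprints, and whether these changed. All Ribo libraries together gave at least 10 counts for 329 of the 435 members and none for 28. Only counts per gene were used, so whether these reads came from ribosome-protected fragments was not tested. Antisense members took 5.76 and 5.85 counts per 1000 protein-coding counts in the Ribo DE libraries, 3.39 and 2.52 in PP1, then 0.514, 2.82 and 0.715 in PP2. In RNA they took 3.59 and 3.66 in DE, 3.23 and 3.06 in PP1, then 4.57, 4.26 and 4.11 in PP2. The 2 lowest Ribo values are PP2 replicates 1 and 3, the libraries with little MT-RNR2, and in PP2 this composition and the antisense share cannot be told apart. PP2-2, with 44.6% MT-RNR2, was within the PP1 range and under both DE libraries.

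**Figure D3:**
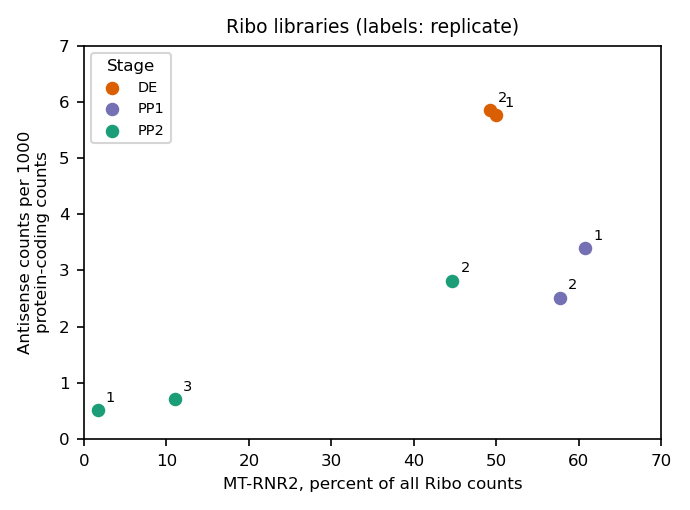
Antisense counts per 1000 protein-coding counts (vertical axis) against the percent of all counts in MT-RNR2 (horizontal axis) for the 7 Ribo libraries, numbered by replicate and coloured by stage. PP2 replicates 1 and 3 lie at 0.514 and 0.715, and the other 5 libraries between 2.52 and 5.85.

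Ribo level over RNA level was compared for members with at least 2 CPM of RNA and 10 Ribo counts in a stage, on a log2 scale relative to the median protein-coding gene. The median over antisense members was 0.34 in DE (219 members), -0.19 in PP1 (129) and -1.45 in PP2 (235). Sense genes had medians of -0.36, -0.31 and -0.15, and lncRNAs other than -AS genes 0.04, -0.31 and -1.44. By single library, the antisense median was 0.39 and 0.54 in DE, 0.08 and -0.54 in PP1, then -2.42, -0.64 and -1.99 in PP2 replicates 1, 2 and 3. PP2-2 thus lay below both DE libraries and near PP1-2. The minimum of 10 counts left out 107 of 326 members at 2 CPM of RNA in DE, 180 of 309 in PP1 and 112 of 347 in PP2, and it corresponds to 0.896, 1.40 and 0.164 CPM of Ribo in these stages, so it selects on the value compared and unequally by stage. With no minimum, and members without a Ribo count ranked lowest, the antisense median was -0.35 in DE, -1.34 in PP1 and -2.08 in PP2, so the sign in DE depends on the minimum. The medians of other lncRNAs were then -0.57, -1.17 and -2.26. Without the minimum 43.2% of antisense members in DE were above the median protein-coding gene, 18.4% in PP1 and 8.65% in PP2, beside 39.2%, 22.6% and 7.64% of other lncRNAs. Members with no Ribo count numbered 45, 49 and 27 in DE, PP1 and PP2.

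**Figure D4:**
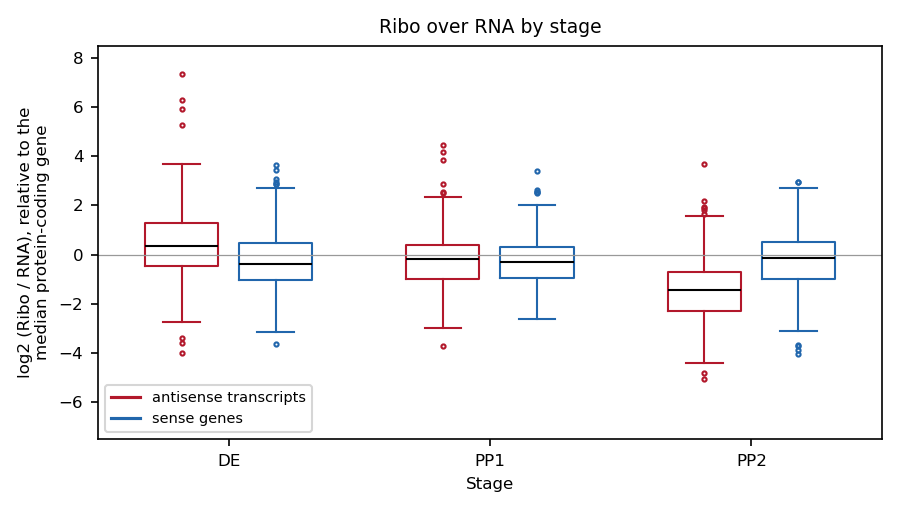
Ribo level over RNA level (log2, relative to the median protein-coding gene, at 0) for antisense transcripts (red, left) and sense genes (blue, right) by stage, with at least 10 Ribo counts in the stage. Boxes span the quartiles with the median as a black line, whiskers reach 1.5 times the box height, and circles lie beyond; the antisense medians are 0.34, -0.19 and -1.45.

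High Ribo over RNA values were found at low RNA levels, as in RERE-AS1, and at higher ones, as in GATA6-AS1. RERE-AS1 had 57.4 and 113 CPM of Ribo in DE, 29.3 and 29.9 in PP1, then 3.51, 14.1 and 2.09 in PP2, while its RNA was 2.26 and 2.86 CPM in DE, 3.15 and 3.17 in PP1, then 5.22, 3.72 and 2.40 in PP2. Every DE library was above all later ones in Ribo, whereas the RNA of the DE and PP2 libraries overlapped. The Ribo over RNA value in DE was 6.29 for RERE-AS1, 5.90 for STAM-AS1 and 5.25 for PRC1-AS1. Ribo of RERE-AS1 fell in PP2 relative to DE by 3.75 (SE 0.67, edgeR adjusted p = 0.0029), a call kept without each library in turn. RERE-AS1 and RERE, a transcriptional corepressor gene, overlap by 10372 bases, and RERE had a Ribo over RNA value of -0.42 in DE. In PP1 the highest values were those of RERE-AS1 at 4.44, PRC1-AS1 at 4.16 and ENTPD1-AS1 at 3.84, and in PP2 DARS-AS1 at 3.67. At the other end, NUTM2A-AS1 stood at -4.01, -3.73 and -4.82 in DE, PP1 and PP2, and OIP5-AS1 at -3.60, -2.98 and -4.39. OIP5-AS1 had 8.33 and 13.6 CPM of Ribo in DE, 8.61 and 9.87 in PP1, then 1.17, 9.19 and 2.17 in PP2.

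Of the 435 members 183 passed the low-count filter for the Ribo test. Leaving out a DE or PP1 library, or PP2 replicates 1 and 3 together, leaves 1 library in that stage. Such a stage has no spread of its own, so counts from these runs only describe how far calls depend on libraries. In PP1 relative to DE 2 rose and 4 fell, 3.28% against 7.53% of all genes tested, of which 4.52% rose and 3.01% fell. This count of 6 became 2 without DE-1, 2 without DE-2, 3 without PP1-1, 2 without PP1-2, 19 without PP2-2 and 29 without PP2 replicates 1 and 3 together. In PP2 relative to PP1 1 fell, 0.546% against 5.01% (2.16% that rose and 2.85% that fell), with 19 at an unadjusted p under 0.05, and 32 fell without PP2-2. DESeq2's Wald test called 5. In PP2 relative to DE 3 rose and 45 fell, 26.2% against 27.6% of all genes, of which 13.1% rose and 14.5% fell. That count of 48 became 16 without DE-1, 15 without DE-2, 103 without PP2-2 and 18 without PP2-3. Without PP2 replicates 1 and 3 together, 4 rose and 16 fell, and 17 of these 20 were among the 48. Of the 183 tested members, 51 would not have passed the filter without their DE libraries, 3 without PP1 and 14 without PP2. Among those 51 are 23 of the 45 that fell in PP2 relative to DE and 3 of the 4 that fell in PP1. Of the 2 that rose in PP1 relative to DE, 1 passed the filter through PP1 alone. Of the 3 that rose in PP2 relative to DE, 1 passed it through PP2 alone. These counts therefore describe the tested members and not all 435, and are no support for a change. The median log2 fold change of the tested members was -1.11, -0.57 and -1.59 in these comparisons, beside -0.04, 0.04 and 0.03 over all genes tested. These medians include the 51 members that passed through DE alone.

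The sense genes gave a different split in Ribo, with 379 tested. In PP1 relative to DE 36 rose and 17 fell (14%, beside 7.53% of all genes), in PP2 relative to PP1 11 rose and 10 fell (5.54%, beside 5.01%), and in PP2 relative to DE 73 rose and 40 fell (29.8%, beside 27.6%). The first count of 53 became 22 without DE-1, 22 without DE-2, 25 without PP1-1 and 22 without PP1-2. The second, of 21, became 2 without PP1-1, 3 without PP1-2 and 5 without PP2-3, all of them lower in PP2, so that every rise was lost, and without PP2-2 it became 84, of which 51 rose and 33 fell. The third, of 113, became 54 without DE-1, 47 without DE-2 and 70 without PP2-3. ID2, NR2F2 and SOX9 rose in PP1 relative to DE in Ribo, and in PP2 relative to DE NR2F1 and MEIS1 rose as well. SOX9 had 9.04 and 4.53 CPM of Ribo in DE, 79.1 and 83.9 in PP1, then 385, 291 and 258 in PP2, a rise of 5.52 ± 0.52 in PP2 relative to DE (edgeR adjusted p = 6.6e-05). SOX9-AS1, by contrast, had Ribo levels of 3.74, 11.4 and 2.67 CPM in PP2 and 2.66 and 1.99 in DE, a log2 fold change of 1.33 ± 0.77 (edgeR adjusted p = 0.22).

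GATA6-AS1 had the most Ribo counts of any antisense member in DE. Its Ribo levels were 282 and 225 CPM in DE, 22.1 and 6.10 in PP1, then 2.52, 16.3 and 3.83 in PP2, and both DE libraries were above all others. It took 13.7% and 10.6% of all antisense counts in the 2 Ribo DE libraries. It fell in PP2 relative to DE by 5.12 (SE 0.77, edgeR adjusted p = 0.0012), and by 3.90 without PP2 replicates 1 and 3, which left 1 PP2 library. Its fall of 4.16 (SE 0.89) in PP1 relative to DE (edgeR adjusted p = 0.017) was lost without DE-1 (adjusted p = 0.061) or PP1-2 (0.14). Ribo over RNA was 3.63 for GATA6-AS1 and -1.58 for GATA6 in DE, 2.14 and -0.85 in PP1, then 1.46 and -0.47 in PP2. GATA6 Ribo levels were 82.8 and 74.1 CPM in DE, 43.0 and 44.7 in PP1, then 51.8, 29.6 and 28.1 in PP2, a fall of 1.10 in PP2 relative to DE (SE 0.34, edgeR adjusted p = 0.037). The transcripts start 621 bases apart in opposite directions.

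LHFPL3-AS2 was the leading antisense transcript in the Ribo PP2 libraries, with 18.1%, 8.48% and 8.23% of antisense counts. It had 0.177 and 0 CPM of Ribo in DE, 49.8 and 72.0 in PP1, then 52.2, 94.8 and 33.8 in PP2. The single count in DE gave a ratio of 675 for PP1 to DE (exact 95% interval 120.5 to 26720), with an edgeR adjusted p of 0.00026, and the call held without each library in turn. LHFPL3 had 8 Ribo counts in DE, 11 in PP1 and 41 in PP2, and its RNA reached 33.3 CPM.

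**Figure D5:**
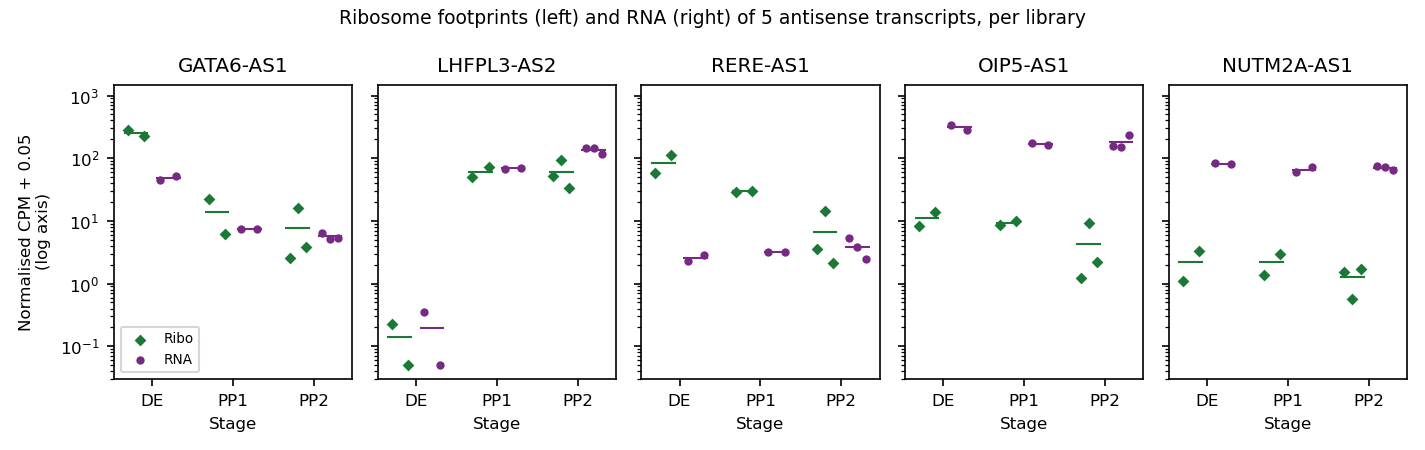
Ribo (green diamonds, left) and RNA (purple circles, right) per library for 5 antisense transcripts by stage. Values are normalised CPM plus 0.05 on a log axis, with bars at group means. GATA6-AS1 and RERE-AS1 have more Ribo than RNA CPM in DE, OIP5-AS1 and NUTM2A-AS1 have less in every stage, and LHFPL3-AS2 has both from PP1 on.

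CELF2-AS1 and EGFLAM-AS4 had Ribo counts in DE alone, and both passed the low-count filter through DE, so their Ribo values are given without a test. CELF2-AS1 had 12.1 and 15.0 CPM of Ribo in DE and no count in PP1 or PP2, at least 32.3-fold lower in PP1 and at least 275-fold lower in PP2. Its RNA was 23.8 and 26.2 CPM in DE, 3.02 and 2.65 in PP1, then 1.46, 1.63 and 0.784 in PP2. CELF2-AS2, another antisense transcript of the same RNA-binding protein gene, had 32.9 and 30.04 CPM of RNA in DE but a single Ribo count in all. EGFLAM-AS4 had no Ribo count in PP1 or PP2 and 7.80 and 10.3 CPM of Ribo in DE, at least 184-fold lower in PP2, and its RNA was at most 0.104 CPM in every later library and 13.5 and 12.96 in DE. EGFLAM, which encodes the matrix protein pikachurin, had 4.57, 2.07 and 5.35 CPM of Ribo in PP2 and 9.57 and 6.16 in DE (log2 fold change -0.96 ± 0.58, edgeR adjusted p = 0.23).

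HMGA2-AS1 and NR2F2-AS1 had RNA and Ribo values of unlike order, and they passed the Ribo filter through PP2 and DE alone, so no test is given. HMGA2-AS1 had 66.8 and 68.4 CPM of RNA in DE, 8.84 and 10.3 in PP1, then 45.2, 39.8 and 35.0 in PP2, while HMGA2, an architectural chromatin protein gene, had 784 and 730 CPM in DE, 118 and 133 in PP1, then 401, 380 and 450 in PP2. HMGA2-AS1 Ribo counts were 0 in DE, 3 in PP1 and 77 in PP2, at least 4.702-fold higher in PP2 than in DE. NR2F2-AS1 had 0.102, 0.647 and 0.217 CPM of Ribo in PP2 and 4.43 and 3.08 in DE, while its RNA was 2.66, 2.91 and 2.72 CPM in PP2 and 0.178 and 0.199 in DE.

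Among the sense genes named by rule, 48 RNA calls of PP1 relative to DE, 32 of PP2 relative to PP1 and 51 of PP2 relative to DE were all kept without RNA PP2-3. Leaving out that library raised the number of sense RNA calls in every comparison, so their being kept says little about how firm they are. Calls such as those of GATA6 and HNF4A in PP1 relative to DE were lost without a DE library, as given above. For the antisense Ribo calls of PP2 relative to DE, 14 of 24 named ones were kept without Ribo PP2 replicates 1 and 3. The 10 lost included those of GATA3-AS1, HOXB-AS1, PAX8-AS1 and PROX1-AS1. Some of the 24 passed the low-count filter through a single stage, such as CELF2-AS1, EGFLAM-AS4 and GATA3-AS1 through DE and HMGA2-AS1 through PP2. For such members a kept or lost call is a description only. Without Ribo PP2 replicates 1 and 3, 1 PP2 library is left, so calls kept in that run are no added support.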

How the data were processed

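RNA and Ribo libraries of HUES8-derived cells were analysed from 1 table of raw read counts per gene deposited by the authors, 7 libraries per assay, with gene lengths from the same table. Per the submitters' processing notes, cutadapt 1.18, Bowtie 1.2, STAR 2.7.1a and featureCounts 1.6.4 were used with hg38. The strand setting is not given in the sources used here. Members, gene lists and tests were chosen with earlier results of these data known.

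Counts were fitted with edgeR 4.0.16 (R 4.3.3, filterByExpr, trimmed mean of M-values, quasi-likelihood test), the 3 stages together within an assay, with Benjamini-Hochberg adjustment over all genes tested (24603 in RNA, 15067 in Ribo) and a threshold of 0.05. Normalised CPM used the scaled library sizes. A gene without counts in a group was set to 3 counts over the group for a bound, and ratios on 1 to 3 counts carry exact 95% intervals that cover counting error only. Self-tests on simulated data preceded the fits. Named genes were the 10 most abundant members, those beside the threshold, partners of developmental regulators, and those at the extremes of sense change, antisense minus sense change, Ribo change and Ribo over RNA. FGF14-AS2, CELF2-AS2 and the signalling genes outside these were named after their values were seen. Some results that the rule covers are not reported here. Alternatives were DESeq2 1.42.0 (size factors and Wald test), limma 3.58.1 voom with quality weights, scaling over protein-coding and antisense genes, omitting the low-count filter, raising it to a mean of 50 counts, only the 2 stages compared, a replicate block, and leaving out libraries. The share of pairs with equal sign under further settings, Ribo over RNA by library and Ribo over RNA with no minimum of counts were chosen after seeing the data. Tables and plots used pandas 2.3.3, scipy 1.17.1 and matplotlib 3.10.9.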

Additional observations from a re-analysis of the deposited data

How the results depend on the processing

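None of 162 gene results changed direction under any alternative run, but the split of sense Ribo calls for PP2 over PP1, 11 higher and 10 lower, held no higher call without PP1-1, PP1-2 or PP2-3 or with the replicate block. Sense RNA calls for PP1 over DE numbered 140, and 242 with limma voom, 266 with only the 2 stages compared and 275 with the replicate block; for PP2 over PP1 93, and 217 with voom and 242 with the block; for PP2 over DE 172, and 260 with the block. Antisense Ribo calls for PP1 over DE numbered 6, and 10 with DESeq2's Wald test, 29 without PP2 replicates 1 and 3, 2 with a filter at a mean of 50 counts, 38 with voom, 10 with no filter and 36 with only the 2 stages. For PP2 over PP1 there was 1, and 5 with the Wald test, 2 without PP2 replicates 1 and 3, 39 with voom and 9 with no filter. For PP2 over DE there were 48, and 20 without PP2 replicates 1 and 3, 11 with the filter at 50, 113 with voom and 16 with the block. Sense Ribo calls for PP1 over DE numbered 53, and 111 without PP2 replicates 1 and 3, 106 with voom and 108 with only the 2 stages; for PP2 over PP1 21, and 49 with the Wald test, 36 without PP2 replicates 1 and 3, 102 with voom, 44 with no filter and 4 with the block; for PP2 over DE 113, and 171 with voom and 59 with the block. Replicate 3 exists only in PP2, so with the block PP2-3 does not enter the estimates of the stage differences. The block is thus close in design to leaving PP2-3 out. The causes of the other differences between runs were not tested. Runs without PP2 replicates 1 and 3, or without a DE or PP1 library, leave 1 library in a stage. Their spread comes from the other stages.

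Leaving out 1 library gave 86 to 273, 31 to 242 and 91 to 259 sense RNA calls, 2 to 19, 1 to 32 and 15 to 103 antisense Ribo calls, and 22 to 79, 2 to 84 and 47 to 167 sense Ribo calls for PP1 over DE, PP2 over PP1 and PP2 over DE. The members numbered 432 to 445, and pairs of equal sign made up 73.6% to 76.3%, 68.2% to 70.9% and 72.0% to 75.8%. A threshold of 5 CPM kept 217 members and 1 CPM 622, and with column-total CPM 76.1% of pairs had equal sign for PP2 over PP1. Over these gene results, 2201 settings kept the call and 236 lost it. Deviations of same-numbered libraries, replicates 1 and 2, had correlations between stages of -0.011, -0.0015 and 0.012 in RNA and 0.051, -0.199 and -0.063 in Ribo. With 2 libraries per stage these values cannot decide whether the numbers pair the samples. The block is therefore given only as a setting. With 2 or 3 libraries per group and 2 Ribo PP2 libraries of unlike composition, Ribo differences of low-count members are limited by depth.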
